A study of Mus musculus with 16 samples.

Results

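Adenomatous polyposis coli (Apc) and 7 further genes of the beta-catenin destruction complex and its readout were followed in the cortex of mouse pups after early-life pain. The members were the entries of the all-genes table named Apc, Apc2, Ctnnb1, Gsk3b, Csnk1a1, Axin1, Axin2 and Lef1, that is 8 of 36930 entries. Each name had 1 entry, each had a value in 16 of 16 pups, and all 8 passed the filter that left 21183 genes. The set was chosen by the genotype difference, because Apc was among the study's candidate genes, which were selected on P-values in these same pups, and the other members were added as its partners with those values known. Genotype differences of the 8 genes are therefore given as a description and without a test.

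The destruction complex keeps the cytoplasmic level of beta-catenin low. Apc and the axins are scaffolds on which casein kinase 1 alpha and glycogen synthase kinase 3 beta phosphorylate beta-catenin, which is then ubiquitinated and degraded. Binding of a Wnt ligand to a frizzled receptor and its coreceptor halts the complex, and beta-catenin then enters the nucleus and acts with Tcf and Lef factors on genes such as Axin2, which feeds back on the pathway. In the brain the pathway is known for its part in neurogenesis, synapse formation and the blood-brain barrier, and Apc also binds microtubule ends in axons and dendrites.

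RNAseq was done at P7 on cortices of 16 C57BL6 pups, 8 Avil-ChR2 and 8 ChR2-flfl. All carried a floxed construct of channelrhodopsin-2 fused to tdTomato behind a stop cassette. Avil-ChR2 pups had in addition a Cre recombinase under the advillin (Avil) promoter, which is active in sensory neurons, so that recombination is directed to sensory neurons, whereas ChR2-flfl pups were Cre-negative litter mates. Pups of both genotypes spent 1 h per day in blue light, from P1 through P5. The litters are not given in the labels. Pup numbers form the runs 26 to 33 and 35 to 42, each with 4 pups of each genotype, and results are also given within each run.

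The reads per pup ranged from 30549126 in ChR2-flfl replicate 3 to 48711134, with a median of 48569794.5. Values are TMM-scaled CPM (reads of a gene relative to the library), referred to as normalized reads. Avil, the driver gene, had 1.07 ± 0.199 normalized reads in ChR2-flfl and 39.7 ± 2.90 in Avil-ChR2 pups (mean ± SD, n = 8 each), a log2 difference of 5.23 (SE 0.09, limma adjusted p = 4.2e-19). Avil-ChR2 replicate 4 was labelled female but had 54.7 normalized reads of the Y-linked Ddx3y, within the range of 50.7 to 73.4 of the 8 pups at male level, whereas the other 8 pups had 1.71 to 2.57. Results by sex use the labels, and values with the sex of this pup in the study's additional file, which is male, are given beside them. The 5 neuronal markers were present in all pups, with summed levels of 5548 to 5876 normalized reads in ChR2-flfl and 5607 to 5838 in Avil-ChR2. The choroid plexus list had sums of 2.47 to 5.32 and 3.19 to 6.53, and the thalamus list 39.98 to 49.0 and 37.6 to 47.7. Of 4 microglia markers, P2ry12 was listed without a value in all pups, whereas the other 3 had a value in all pups. The sums of the microglia list were 45.7 to 74.4 normalized reads in ChR2-flfl and 56.5 to 71.2 in Avil-ChR2. Xist, also planned as a check of sex, had a value in 2 pups only and did not separate the labelled sexes. It had 570.9 normalized reads in Avil-ChR2 replicate 3, labelled female, and 0.208 in ChR2-flfl replicate 7, labelled male.

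Axin2 and Lef1 were used as readouts of beta-catenin activity, and for them the 250 bases before a RefSeq start on GRCm38.p6 (plus strand) are shown. The windows were searched on both strands for 4 forms of the Tcf/Lef motif, which are CTTTGAA or else CTTTGAT and likewise CTTTGTA or else CTTTGTT, and a match is in capitals. The Axin2 window is chr11:108920099-108920348 and held no match. It lies inside the span of the Axin2 entry, which starts at 108917828, and the bases before that start were not searched. Of 4 RefSeq windows of Lef1, 3 held no match, among them those at the first start of the gene. The window shown, chr3:131156044-131156293, lies before an internal start and held 1 match, for which it was chosen. Neither window shown overlaps an annotated exon.
Axin2: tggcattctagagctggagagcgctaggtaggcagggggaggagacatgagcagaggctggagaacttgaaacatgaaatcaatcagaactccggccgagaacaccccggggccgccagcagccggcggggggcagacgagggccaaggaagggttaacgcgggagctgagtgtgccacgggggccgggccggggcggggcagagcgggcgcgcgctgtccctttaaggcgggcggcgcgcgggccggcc
Lef1: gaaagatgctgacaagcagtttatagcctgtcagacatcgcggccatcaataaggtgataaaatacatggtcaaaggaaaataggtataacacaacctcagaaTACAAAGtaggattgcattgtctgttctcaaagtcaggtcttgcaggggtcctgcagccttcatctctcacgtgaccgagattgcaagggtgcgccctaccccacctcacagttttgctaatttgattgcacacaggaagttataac
Of 32851 such windows of 27025 genes, 14.8% held at least 1 match. A match is a stretch of letters and not evidence of binding, and RefSeq windows were found for 5 of the 8 members.

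Levels of the members could be compared between genes only per transcript length. Beta-catenin itself (Ctnnb1, chr9:120933400-120960507) had the highest level, with 181.0 ± 8.68 normalized reads per kb of its longest transcript of 3.623 kb (mean ± SD, n = 16). Apc (chr18:34220307-34322190) followed with 103.9 ± 6.09 per kb of 12.811 kb. The kinases came next, Csnk1a1 (chr18:61555165-61590315) with 76.9 ± 2.75 and Gsk3b (chr16:38089001-38246080) with 49.6 ± 1.84 per kb. The Apc paralog Apc2 (chr10:80295957-80318257) had 41.96 ± 5.68 per kb. The scaffolds Axin1 (chr17:26130972-26195811), with 8.34 ± 0.261 per kb, and Axin2 (chr11:108917828-108950783), with 5.56 ± 0.436 per kb, lay far below the other complex members. Lef1 (chr3:131110263-131224357), a transcription factor that binds beta-catenin, was lowest with 1.42 ± 0.161 per kb. All coordinates are on GRCm38, and all 8 genes lie on the plus strand.

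In that order each gene was above the next in 16 of 16 pups, except that Gsk3b was above Apc2 in 15 of 16, so that these neighbours overlap. With the median length of all annotated transcripts, coding or not, Apc2 (263.9 normalized reads per kb) stood above Gsk3b (235.3) and Csnk1a1 (138.5). Axin2 with 22.5 then stood above Axin1 with 11.1. The order of the members thus depends on the transcript taken as the length. Over coding transcripts alone the median length was 7967 bp for Apc and 566 bp for Apc2, and the order with such lengths was not calculated. Antisense entries overlap Apc2 (2310011J03Rik, 12.8 normalized reads), Ctnnb1 (Ulk4, 12.3) and Gsk3b (BC031361, 2.90), and the libraries were made with a stranded kit, but the sources used here do not state whether the counting used the strand.

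**Figure D1:**
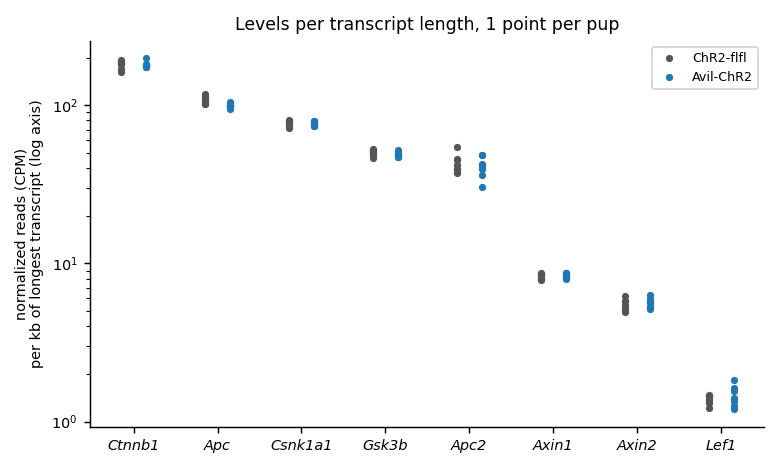
Normalized reads (CPM) per kb of the longest transcript for the 8 genes (log axis), 1 point per pup, ChR2-flfl in grey and Avil-ChR2 in blue. The genes are ordered by their mean, from 181.0 for Ctnnb1 to 1.42 for Lef1, and the ranges of Gsk3b and Apc2 overlap.

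Apc was lower in Avil-ChR2 pups on average. In ChR2-flfl pups, replicates 1 to 8 had 1437, 1348, 1298, 1403, 1295, 1405, 1515 and 1343 normalized reads. In Avil-ChR2 pups, replicates 1 to 8 had 1285, 1317, 1260, 1275, 1351, 1280, 1275 and 1205. All 8 Avil-ChR2 pups lay below the ChR2-flfl mean, 6 of them lay below the lowest ChR2-flfl pup, and 4 ChR2-flfl pups lay above the highest Avil-ChR2 pup, so that the groups overlapped. The means were 1381 ± 74.8 and 1281 ± 42.2 (SD, n = 8 each), a log2 difference of -0.11 (SE 0.03) or -7.1%.

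The log2 difference of Apc was -0.09 (SE 0.04) within pups 26 to 33 and -0.12 (SE 0.06) within pups 35 to 42. Omission of single pups gave -0.12 to -0.09. It was -0.09 in pups labelled female and -0.12 in pups labelled male, and -0.09 and -0.13 with the sexes of the additional file. Among the 15137 genes whose mean log2 value was 0 or above, 11.9% had a larger absolute genotype difference, and the median absolute difference was 0.04. In cortex homogenates, fewer cells of a type and less RNA per cell cannot be told apart.

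Apc has the longest transcript of the 8 genes, and a property of the libraries related to length moved with it. For each pup, the slope of log2 values on log10 transcript length was calculated. It covered genes past the filter with a mean log2 value of 0 or above and an annotated length. This length slope was 2.51 ± 0.068 in ChR2-flfl and 2.45 ± 0.033 in Avil-ChR2 pups (mean ± SD, n = 8 each), with ranges of 2.41 to 2.59 and 2.41 to 2.51. With the slope as a covariate the log2 difference of Apc was -0.06 (SE 0.03), against -0.11 without it. The part of RNA or library quality in the Apc difference was not tested beyond this value.

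Over all pups, the other members of the complex had smaller differences than Apc. Apc2 exceeded Apc in size in pups 35 to 42 and with the covariate, Axin2 did so in pups 26 to 33, and Lef1 in pups 35 to 42. In pups labelled female, Axin2 (0.11) and Lef1 (0.12) exceeded Apc (-0.09) in size. In pups labelled male, Apc2 (-0.19) exceeded Apc (-0.12). Of these other genes, only Axin1 kept its direction in both runs and with the covariate (0.02, 0.04 and 0.02). Apc2, a paralog of Apc known from the nervous system, had 340 to 497 normalized reads in ChR2-flfl (median 373.7) and 281 to 447 in Avil-ChR2 (median 383.0). Its log2 difference was -0.05 (SE 0.09), and the direction turned between the runs, from 0.05 (SE 0.14) in pups 26 to 33 to -0.16 (SE 0.12) in pups 35 to 42. With the length slope as a covariate it was -0.13 (SE 0.10), larger in size than that of Apc. Ctnnb1 had 587 to 704 (median 664.1) and 632 to 717 (median 647.9), with a log2 difference of -0.003 (SE 0.035), also with opposite signs in the runs (-0.03 and 0.03). The groups of these genes overlapped almost fully.

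The kinases were close between genotypes. Gsk3b had 388 to 439 normalized reads in ChR2-flfl (median 420.4) and 391 to 429 in Avil-ChR2 (median 407.8), a log2 difference of -0.03 (SE 0.03) that was 0.02 (SE 0.03) with the length slope as a covariate. Csnk1a1 had 293 to 327 (median 319.8) and 302 to 326 (median 313.4), a log2 difference of -0.005 (SE 0.03). The values of both kinases in Avil-ChR2 pups lay within the range of the ChR2-flfl pups.

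Of the scaffolds, Axin1 had 29.8 to 32.8 normalized reads in ChR2-flfl (median 31.2) and 30.2 to 33.0 in Avil-ChR2 (median 31.9), a log2 difference of 0.03 (SE 0.03). Axin2 had 21.1 to 26.7 (median 22.8) and 21.9 to 26.8 (median 24.4), a log2 difference of 0.06 (SE 0.05). In pups 26 to 33, Axin2 was 22.7 ± 1.58 in ChR2-flfl and 24.8 ± 0.567 in Avil-ChR2 (SD, n = 4 each), a log2 difference of 0.13 (SE 0.05). In pups 35 to 42 it was 23.7 ± 2.53 and 23.4 ± 2.27, a log2 difference of -0.01 (SE 0.10). With the length slope as a covariate the difference over all pups was -0.02 (SE 0.06).

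Lef1, the second readout, had 4.44 to 5.42 normalized reads in ChR2-flfl (median 5.17) and 4.38 to 6.69 in Avil-ChR2 (median 5.06). The log2 difference was 0.05 (SE 0.08), with -0.03 (SE 0.14) in pups 26 to 33 and 0.13 (SE 0.09) in pups 35 to 42. Avil-ChR2 pups were more spread than controls, with 3 above the highest and 1 below the lowest ChR2-flfl pup. The highest value was 6.69 in Avil-ChR2 replicate 2. Omission of single pups gave differences between 0 and 0.09.

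**Figure D2:**
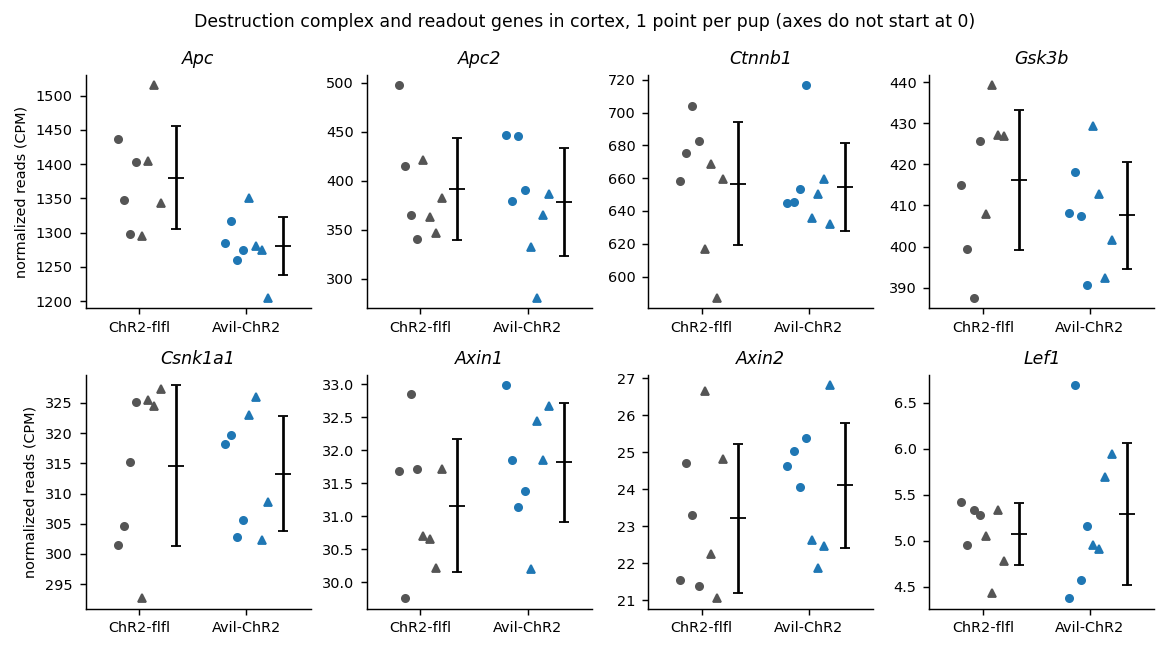
Normalized reads (CPM) of the 8 genes, 1 point per pup (circles for pups 26 to 33, triangles for pups 35 to 42), with the mean and SD of 8 pups beside the points; the axes do not start at 0. Apc has 6 of 8 Avil-ChR2 pups below the lowest ChR2-flfl pup, and the groups of all 8 genes overlap.

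**Figure D3:**
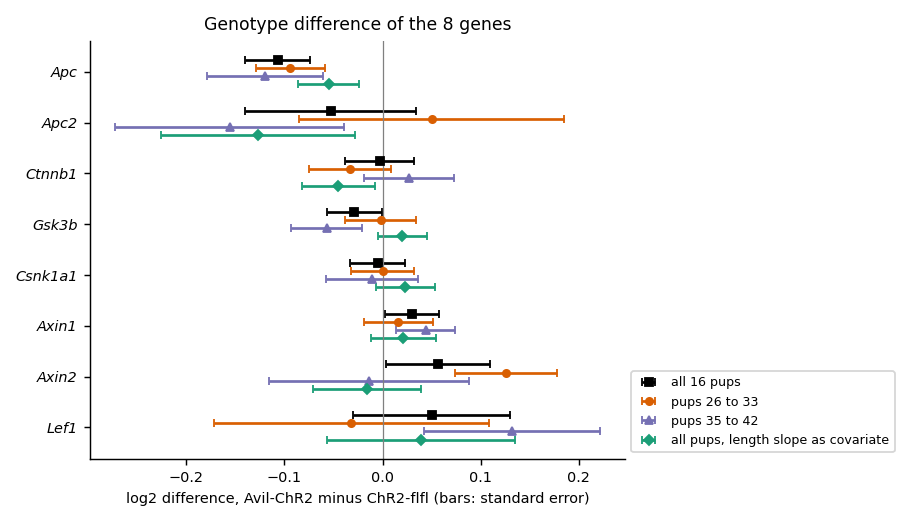
Log2 difference of Avil-ChR2 minus ChR2-flfl with its standard error, over all 16 pups, within each run of pup numbers, and with the length slope as a covariate. Apc is below 0 in all 4 estimates, from -0.12 to -0.06, whereas Apc2, Ctnnb1, Axin2 and Lef1 change sign between the runs.

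The depth behind the values differed among members. Apc had 40155 to 72986 reads per pup, and its coefficient of variation of 5.42% in ChR2-flfl and 3.296% in Avil-ChR2 pups compares with 0.396% and 0.401% from counting alone. Axin1 had 1016 to 1612 reads, and its variation of 3.22% and 2.85% was close to its counting error of 2.64% and 2.54%. Lef1 had 165 to 325 reads per pup. Its variation of 6.70% in ChR2-flfl was close to the counting error of 6.54%, whereas it was 14.6% against 6.24% in Avil-ChR2 pups. Apc2 stood out among the well-counted members with 13.3% and 14.6% against counting errors of 0.743% and 0.738%. Reads without molecular identifiers are not independent molecules, so these figures cover counting error only.

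Sex and the run of pup numbers were not used to select the members and were tested. For sex, 0 of 8 members had an adjusted p under 0.05 in limma (adjusted p 0.983 to 0.988) and 0 of 8 an unadjusted p under 0.05, beside 0.033% and 4.23% of 21183 genes. The log2 differences, female minus male, ranged from -0.11 for Apc2 to 0.04 for Ctnnb1. With the sexes of the additional file they ranged from -0.09 for Apc2 to 0.04 for Lef1, and without Avil-ChR2 replicate 4 that of Apc2 was -0.11. The sex difference of Apc2 was -0.05 without ChR2-flfl replicate 1, -0.175 without Avil-ChR2 replicate 6 and -0.02 without a term for the run.

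For the run of pup numbers, 0 of 8 members had an adjusted p under 0.05 and 1 had an unadjusted p under 0.05, beside 0.0755% and 11.9% of all genes. The member was Apc2, with 410 ± 51.4 normalized reads in pups 26 to 33 and 360 ± 41.7 in pups 35 to 42 (SD, n = 8 each), a log2 difference of -0.23 (SE 0.08, limma unadjusted p = 0.0115, adjusted p = 0.273). The difference did not pass the adjusted threshold, and omission of single pups gave -0.28 to -0.17. What else differed between the runs is not given in the labels.

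The interaction of genotype and sex gave 0 of 8 members with an adjusted p under 0.05 and 1 with an unadjusted p under 0.05, beside 0% and 5.03% of all genes. The member was again Apc2. In pups labelled female it was 370.9 ± 31.4 in ChR2-flfl (n = 4) and 386.8 ± 39.95 in Avil-ChR2 (n = 5), and in pups labelled male it was 411.9 ± 64.5 (n = 4) and 364.1 ± 83.2 (n = 3). With the sexes of the additional file, Avil-ChR2 females had 386.0 ± 46.1 and Avil-ChR2 males 370.6 ± 69.2 (n = 4 each). The difference of the genotype differences was 0.31 on the log2 scale (SE 0.14, limma unadjusted p = 0.0426, adjusted p = 0.922). It was 0.34 with the sexes of the additional file, 0.33 without Avil-ChR2 replicate 4, and 0.16 without Avil-ChR2 replicate 6, the pup with the lowest Apc2 of 281 normalized reads. Ctnnb1 also depended on the sex of replicate 4. With the sexes of the additional file its log2 genotype difference was -0.09 in females and 0.08 in males, against -0.06 and 0.05 with the labels. Females of the additional file had 682.7 ± 15.3 in ChR2-flfl and 641.5 ± 9.80 in Avil-ChR2, and males 630.4 ± 35.1 and 667.8 ± 33.2 (n = 4 each).

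Variation between pups of the same genotype does not depend on the genotype difference, and was examined as deviations of log2 values from the genotype mean over 16 pups, with two-sided permutation tests and adjustment over 6 relations. For the readouts Axin2 and Lef1 no relation was detectable, with r = 0.08 (Spearman's rho 0.02, permutation p = 0.784, adjusted p = 0.784) and r = -0.07 without the 2 pups farthest on the x axis. Within the runs r was 0.01 and 0.36.

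Lef1 is known in brain endothelium, where Wnt signalling supports the barrier, and its relation to 6 endothelial markers was r = 0.58 (rho 0.58, permutation p = 0.0182, adjusted p = 0.0545). It was 0.43 without the 2 farthest pups, and 0.57 and 0.71 within the runs (exact permutation p = 0.134 and 0.0564). The relation missed the threshold for r, whereas rho passed with an adjusted p of 0.0455. It was 0.74 without ChR2-flfl replicate 1, 0.62 without ChR2-flfl replicate 5 and 0.63 without Avil-ChR2 replicate 6, and r then passed the adjusted threshold. Omission of single pups could also lower r, and the whole range is given at the end. The summed endothelial markers were 222.6 to 254.8 normalized reads in ChR2-flfl and 227.0 to 269.5 in Avil-ChR2 pups, with 6 of 6 markers present in all pups. With the 6 thalamic markers, of which Gbx2 did not pass the filter, the relation of Lef1 was r = 0.30 (rho 0.28, permutation p = 0.261, adjusted p = 0.314), within runs 0.14 and 0.50, and 0.08 without the 2 farthest pups.

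Axin2 is known in the oligodendrocyte lineage. Its relation to 4 markers of oligodendrocyte precursors was r = 0.49 (rho 0.57, permutation p = 0.0533, adjusted p = 0.107), with 0.45 and 0.79 within the runs and 0.50 without the 2 farthest pups. For rho the adjusted p was 0.0455. The summed precursor markers were 216.7 to 258.7 normalized reads in ChR2-flfl and 216.2 to 257.7 in Avil-ChR2 pups. With the endothelial markers the relation of Axin2 was r = 0.38 (rho 0.27, permutation p = 0.150, adjusted p = 0.225), with 0.58 and 0.69 within the runs and 0.27 without the 2 farthest pups.

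Apc followed the length slope of the libraries also within genotypes, with r = 0.69 (rho 0.69, permutation p = 0.00338, adjusted p = 0.0203). It was 0.68 without the 2 farthest pups, and 0.85 and 0.74 within the runs (exact permutation p = 0.00863 and 0.0420). Pups with more reads in long transcripts had more Apc. The relation missed the adjusted threshold without ChR2-flfl replicate 3 (r = 0.62) and without ChR2-flfl replicate 7 (r = 0.59), the pup with the highest Apc.

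After these values were seen, the length slope was also compared with all 8 members, and adjusted over 8 relations. Gsk3b had r = 0.80 (rho 0.82, permutation p = 0.0002, adjusted p = 0.0016), with 0.74 and 0.76 within the runs and 0.68 without the 2 farthest pups. Axin2 ran the opposite way with r = -0.54 (rho -0.59, permutation p = 0.0293, adjusted p = 0.0780), with -0.89 and -0.68 within the runs and -0.61 without the 2 farthest pups. By r, Apc and Gsk3b passed the adjusted threshold (2 of 8), and 3 of 8 had an unadjusted p under 0.05. By rho, Axin2 also passed, with an adjusted p of 0.0462 in the permutation test.

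Members were then compared in 28 pairs, also chosen after the data were seen, and 1 pair passed after adjustment over the 28 whereas 4 had an unadjusted p under 0.05. Apc and Axin2 varied in opposite directions, with r = -0.72 (rho -0.72, permutation p = 0.00105, adjusted p = 0.0294), r = -0.61 without the 2 farthest pups, and -0.58 and -0.88 within the runs (exact permutation p = 0.132 and 0.00459). ChR2-flfl replicate 7 had the highest Apc of 1515 and the lowest Axin2 of 21.1 normalized reads, and Avil-ChR2 replicate 8 had the lowest Apc of 1205 and the highest Axin2 of 26.8. With the length slope taken out of both, r was -0.57. For Apc and Gsk3b r was 0.63 (rho 0.68, permutation p = 0.00861, adjusted p = 0.0603), r = 0.65 without the 2 farthest pups, 0.81 and 0.61 within the runs, and 0.19 with the length slope taken out.

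The remaining pairs with an unadjusted p under 0.05 involved casein kinase 1 alpha. Apc2 and Csnk1a1 had r = -0.66 (rho -0.72, permutation p = 0.00517, adjusted p = 0.0602), r = -0.57 without the 2 farthest pups, -0.70 and -0.76 within the runs, and -0.61 with the length slope taken out. Gsk3b and Csnk1a1 had r = 0.65 (rho 0.70, permutation p = 0.00645, adjusted p = 0.0602), 0.77 without the 2 farthest pups, 0.40 and 0.84 within the runs, and 0.54 with the slope taken out. By Spearman's rho, all 4 pairs had adjusted p values of 0.0305 to 0.0320.

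**Figure D4:**
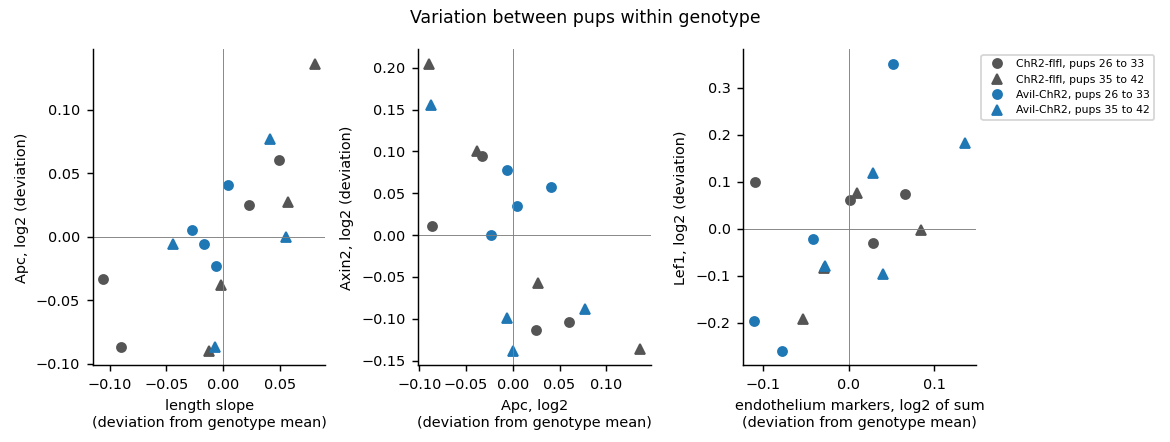
Deviations from the genotype mean on the log2 scale, 1 point per pup, for Apc against the length slope (left), Axin2 against Apc (middle) and Lef1 against the log2 sum of the endothelial markers (right); circles are pups 26 to 33 and triangles pups 35 to 42. Apc rises with the length slope (r = 0.69), Axin2 declines with Apc (r = -0.72), and Lef1 rises with the endothelial markers (r = 0.58).

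The genes most like 3 members were searched among 15137 genes by the Pearson r of these deviations over 16 pups, as a description. For Apc they included Zfp846 (r = 0.92), Ryk (0.87), Braf (0.87) and Eml6 (0.86), whose longest transcripts measure 12.97, 3.07, 9.73 and 8.08 kb. Ryk is a receptor of Wnt ligands and Braf a kinase of the MAP kinase pathway. For Axin2 they were Zyx (0.90), Man2b2 (0.87), Ctdsp1 (0.85), Mogs (0.85) and Chpf2 (0.85), with transcripts of 2.78 to 5.37 kb. For Lef1 they were Vwf (0.86), Kdr (0.85), Plekhg1 (0.84), Nr2f2 (0.81) and Flt1 (0.78). Vwf, the von Willebrand factor, and the receptors of vascular endothelial growth factor Kdr and Flt1 are endothelial genes. Within the runs, the r of Vwf with Lef1 was 0.91 and 0.90, that of Kdr 0.93 and 0.74, and that of Plekhg1 0.95 and 0.86. For Nr2f2 it was 0.89 and 0.556, and for Flt1 0.953 and 0.445. Flt1 is also among the 6 endothelial markers summed above.

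A list of 122 other Wnt pathway genes in 8 roles was tested for genotype, of which 115 passed the filter. With limma, 0 of 115 had an adjusted p under 0.05, beside 2 of 21183 genes (0.00944%), and the lowest adjusted p was 0.725 for Fzd3. At an unadjusted p under 0.05, 7 were lower (6.09%) and 3 higher (2.61%), beside 3.46% lower and 1.95% higher of all 21183 genes. The median log2 difference of the list was 0.007, beside 0.002 for all genes. Without ChR2-flfl replicate 6 there were 4 lower and 1 higher, beside 631 and 376 of all 21183 genes. Without Avil-ChR2 replicate 6 there was 1 higher, beside 478 of all genes. In pups 26 to 33 alone there were 3 lower and 0 higher, beside 446 and 226 of all genes. With the length slope as a covariate there were 5 lower, of which Wnt11 and Fzd3 were shared with the 7, and 1 higher, Ryk, which was not among the 3. The other 3 lower genes were then Tcf7l1, Tcf7l2 and Lgr5, named here after their values were seen. Of all genes, 411 were lower and 374 higher with this covariate. None of the genes below is called as changed, and their values are given with unadjusted p.

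Ligands (15 of 19 tested) were led in level by Wnt7b, with 52.0 ± 7.47 normalized reads in ChR2-flfl and 56.97 ± 7.76 in Avil-ChR2, and by Wnt5b with 16.02 ± 1.37 and 16.1 ± 1.81. Wnt11 had 0.385 ± 0.133 and 0.263 ± 0.0672, a log2 difference of -0.52 (SE 0.23, limma unadjusted p = 0.0348, adjusted p = 0.892) on 8 to 31 reads per pup. The ligand secretion genes Porcn, which acylates Wnts, and Wls, which carries them to the surface, had 39.2 ± 2.82 and 35.6 ± 4.16 in ChR2-flfl and 39.9 ± 0.939 and 36.6 ± 4.36 in Avil-ChR2. Rspo1, a secreted enhancer of the pathway, had 1.07 ± 0.198 and 1.32 ± 0.146, a log2 difference of 0.31 (SE 0.12, limma unadjusted p = 0.0189, adjusted p = 0.841). All 8 Avil-ChR2 pups lay above the ChR2-flfl mean of Rspo1, which is no further support because Rspo1 was picked out by its p in these pups. With the length slope as a covariate the log2 difference of Rspo1 was 0.18.

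Receptors and coreceptors held 3 of the 7 lower genes, of 19 tested. The frizzled receptor Fzd3, known for its part in axon tract formation, had 201.8 to 248.4 normalized reads in ChR2-flfl and 186.6 to 205.5 in Avil-ChR2, a log2 difference of -0.15 (SE 0.04, limma unadjusted p = 0.001, adjusted p = 0.725). The coreceptor Lrp6 differed by -0.10 (SE 0.04, adjusted p = 0.825) and the R-spondin receptor Lgr4 by -0.09 (SE 0.04, adjusted p = 0.849). In each of these 3 genes, all 8 Avil-ChR2 pups lay below the ChR2-flfl mean. The genes had been picked out by their unadjusted p in these same pups, so that these positions are no further support. With the length slope as a covariate the log2 differences of the 3 genes were -0.068, -0.055 and -0.034.

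Of 12 inhibitors tested, Dkk3 had the highest level, 110.6 ± 7.13 in ChR2-flfl and 112.9 ± 7.88 in Avil-ChR2. Frzb, which binds Wnts outside the cell, had 19.7 ± 1.25 and 21.3 ± 1.97, a log2 difference of 0.11 (SE 0.05, limma unadjusted p = 0.0484, adjusted p = 0.911). Of 26 cytoplasmic regulators of the complex, the phosphatase subunits Ppp2r1a and Ppp2ca were most abundant, with 720.0 ± 29.6 and 412.7 ± 13.9 in ChR2-flfl and 727.8 ± 30.2 and 420.9 ± 13.2 in Avil-ChR2. The kinase Csnk1g1 alone of the 26 had an unadjusted p under 0.05, with a log2 difference of -0.07 (SE 0.03, adjusted p = 0.884), and -0.03 with the length slope as a covariate.

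The 15 nuclear partners held 2 lower genes and 1 higher gene. The acetyltransferases and coactivators Crebbp and Ep300 differed by -0.148 (SE 0.053, adjusted p = 0.825) and -0.085 (SE 0.037, adjusted p = 0.884), with -0.088 and -0.035 when the length slope was a covariate. Tcf7, a relative of Lef1, had 6.13 to 7.47 normalized reads in ChR2-flfl and 6.53 to 9.59 in Avil-ChR2, a log2 difference of 0.16 (SE 0.07, adjusted p = 0.882). The most abundant of the role were Tle3, a corepressor, with 97.1 ± 5.28 and 98.7 ± 5.82, and Bcl9, a coactivator of beta-catenin, with 95.95 ± 4.44 and 94.99 ± 2.53.

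Of 10 further target genes, 0 had an unadjusted p under 0.05 in limma, and the median log2 difference was 0.002. The most abundant were Tnfrsf19, with 134.1 ± 5.90 in ChR2-flfl and 139.3 ± 6.75 in Avil-ChR2, and Apcdd1, an inhibitor induced by the pathway, with 78.0 ± 5.75 and 78.9 ± 3.21. Of 12 partners of Apc at microtubules and of beta-catenin at adhesion sites, 0 had an unadjusted p under 0.05, and their differences ranged from -0.065 to 0.035. Mapre2, which binds microtubule ends, had 668.2 ± 15.5 and 677.3 ± 8.60, and Kifap3, a kinesin adaptor, 539.7 ± 19.2 and 543.3 ± 20.1 normalized reads. The 7 lower genes of the list had a median transcript length of 9.37 kb, the 3 higher genes of 2.47 kb, and all genes of 3.12 kb. The part of transcript length in these differences was not tested beyond the covariate values above.

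**Figure D5:**
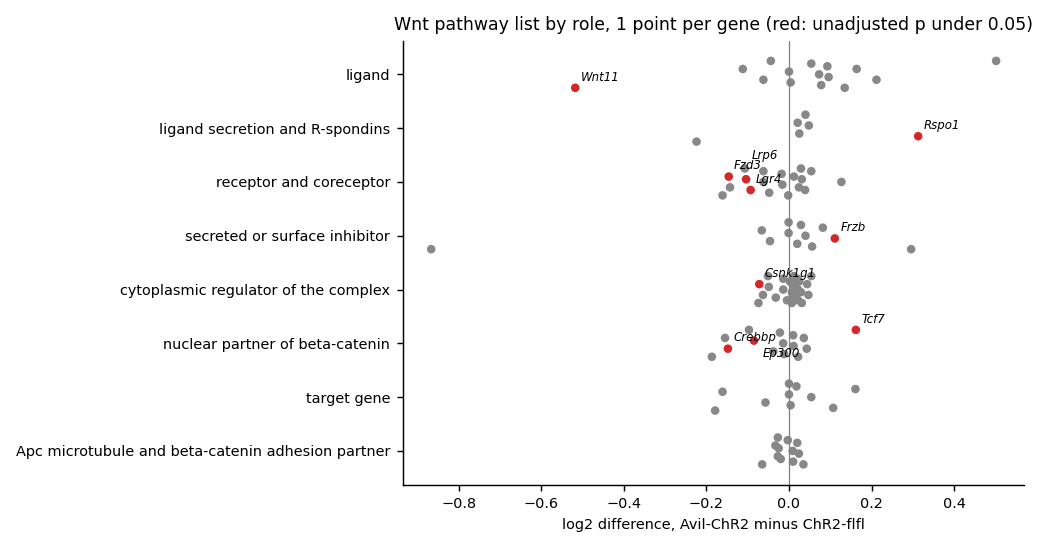
Log2 difference of Avil-ChR2 minus ChR2-flfl for the 115 tested genes of the Wnt pathway list, by role, 1 point per gene; red marks the 10 named genes with an unadjusted p under 0.05. The receptors and nuclear partners hold 5 of the 7 lower genes, and 0 genes passed adjustment.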

How the data were processed

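Cortices of 8 Avil-ChR2 and 8 ChR2-flfl pups were analyzed by mRNA sequencing. The authors used SeqMan NGen 17 to map reads (minimum length 50 bp) to the mm10 genome (GRCm38) and ArrayStar 17 for the counts, applied edgeR's TMM scaling, and deposited CPM values on a linear scale, without logarithm and with decimal commas. These deposited CPM values are whole multiples of 1 read, and 100% of values up to 20000 reads were whole within 0.05. Values were log2 transformed without a pseudocount, with a floor of -5, and genes with at least 12 of 16 values above it were tested with limma 3.58.1 in R 4.3.3 (eBayes with trend) with Benjamini-Hochberg adjustment. Sex, run and interaction were fitted with genotype, and run or sex, as further terms. Lengths are those of the longest GENCODE M21 transcript, at hand for 82.5% of the genes. Correlations were tested with 100000 permutations over 16 pups and exactly within runs. P-values weigh a difference or relation against the spread between pups. They do not cover variation between litters, which the labels do not give. The genes named are the 8 members, in each role of the Wnt list the 2 most abundant genes and those with an unadjusted genotype p under 0.05, the 5 genes most like Apc, Axin2 and Lef1 (1 of those for Apc is not reported here), and genes checking the labels. The members and lists were chosen with earlier results of these data known. Scripts were tested on simulated data.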

Additional observations from a re-analysis of the deposited data

Results flagged for a closer look

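In Avil-ChR2 pups, the highest Ctnnb1 value of 716.7 normalized reads in replicate 4 lay apart from the other 7 pups, with a gap of 0.675 of the group's whole range (Dixon's criterion). This is the pup whose labelled sex differs from its Ddx3y level. Chance alone places about 1 in 20 groups past this criterion, and 16 groups were examined. Without this pup the log2 genotype difference of Ctnnb1 was -0.02, against -0.003 with it.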

How the results depend on the processing

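The genotype differences of the 8 members moved by less than the SD between pups in all 208 alternative values under 26 settings. This criterion is wide, because for all members but Apc the difference itself was smaller than the SD within either genotype. A loss or a change of sign could therefore stay within it. Apc stayed below 0 under all 26 settings, from -0.12 to -0.06 on the log2 scale, and Axin1 above 0, whereas the other 6 members changed sign under at least 1 setting. All settings reuse the pups in which Apc was selected by its P-value, so its constant sign is no independent support for a difference. The replicate numbers did not pair the pups (correlations of same-numbered pups from -0.344 to 0.389), and with the numbers as a replicate block the genotype difference of Apc was again -0.11, the Wnt list held 6 lower and 2 higher genes at an unadjusted p under 0.05, the sex difference of Apc2 turned from -0.11 to 0.035, and 0 members had an unadjusted p under 0.05 for the interaction. These block fits for sex and interaction carry no term for the run, and a block fit for the run could not be made because each number falls in 1 run. In the block fit for genotype, 708 of all 21183 genes were lower and 383 higher at an unadjusted p under 0.05 in limma.

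The count of Wnt list genes at an unadjusted p under 0.05 ranged from 4 to 10 lower and from 1 to 3 higher when each pup was left out. Of all 21183 genes, 585 to 959 were then lower and 322 to 622 higher. In pups 26 to 33 alone the list held 3 lower and 0 higher, beside 446 and 226 of all genes. With the length slope as a covariate the list held 5 lower and 1 higher, beside 411 and 374 of all genes. Of the 5 and 1 listed genes, 2 and 0 were shared with the counts without the covariate. For members at an unadjusted p under 0.05, leaving out each pup gave 0 to 1 for sex, 0 to 1 for the run and 0 to 2 for the interaction. For the run the count was 2 with quantile normalization, with the sexes of the additional file and without a term for sex. For the interaction it was 0 without a filter and without a term for the run, and 2 with the length slope as a covariate and with the sexes of the additional file. Members with an adjusted p under 0.05 numbered 0 under all these settings.

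The r of Apc with the length slope was 0.62 with quantile normalization and then missed the adjusted threshold, and leaving out each pup gave 0.59 to 0.74. For Lef1 with the endothelial markers, leaving out each pup gave 0.51 to 0.74. The cause of these shifts was not tested. The planned edgeR test on recovered reads was not run. At 165 to 325 reads per pup, the spread of Lef1 was close to counting error in ChR2-flfl but above it in Avil-ChR2 pups.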
